A study of Homo sapiens with 6 samples.

Results

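The 8 genes described here encode aldehyde dehydrogenases outside folate metabolism, namely ALDH1A1, ALDH1A3, ALDH1B1, ALDH2, ALDH3A2, ALDH7A1, ALDH9A1 and ALDH18A1, out of 17687 genes measured. They were followed in U87MG, an established human glioblastoma cell line, after exposure to P-bi-TAT, a bivalent compound built on the thyroid hormone derivative tetrac that acts at integrin αvβ3 on the cell surface. RNA from cells exposed over 24 h to P-bi-TAT at 30 µM (3 arrays) and from untreated cells given PBS alone for as long (3 arrays) was hybridized to Affymetrix Clariom S arrays, and the cells were kept in low-serum medium beforehand. The study asked how P-bi-TAT affects transcription across the genome, with attention to genes of stemness, tumor cell survival, energy metabolism and mitochondrial function. U87MG is 1 cell line with no normal astrocyte beside it. Nothing states that the replicates were separate cultures, so the spread and the p-values below describe these arrays and may be technical. The genes were chosen by name with the deposited values and the comparison of P-bi-TAT with untreated cells already known, so their levels and differences are a description and support nothing on their own. Where a gene has several probe sets the brightest was to be taken, but each of the 8 had 1 probe set (TC0900012245.hg.1 for ALDH1A1, TC1500010800.hg.1 for ALDH1A3, TC0900007187.hg.1 for ALDH1B1, TC1200012707.hg.1 for ALDH2, TC1700007189.hg.1 for ALDH3A2, TC0500011924.hg.1 for ALDH7A1, TC0100016260.hg.1 for ALDH9A1 and TC1000011499.hg.1 for ALDH18A1), so that step chose nothing. Of 19 measured ALDH genes, 11 are not among the 8. ALDH1L1 and ALDH1L2 are the enzymes of folate metabolism, and the other 9 act outside it and were not included.

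Aldehyde dehydrogenases oxidize aldehydes to carboxylic acids, with NAD or NADP as the electron acceptor. They clear reactive aldehydes that arise from ethanol, lipid peroxidation and amines, and some members make signaling molecules or metabolites. ALDH1A1 and ALDH1A3 form retinoic acid from retinaldehyde in the cytosol, and ALDH activity is widely used to enrich stem-like tumor cells, with ALDH1A3 as a known marker of the mesenchymal form of glioblastoma. ALDH2 and ALDH1B1 act in the mitochondrial matrix, ALDH3A2 on fatty aldehydes in membranes of the endoplasmic reticulum and peroxisomes, and ALDH7A1 and ALDH9A1 in lysine breakdown and in amine and carnitine metabolism. ALDH18A1 carries the fold of the family but is a synthetase, which makes the precursor of proline and ornithine from glutamate.

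Levels are given on the log2 scale as deposited, 1 value per probe set and array, and a difference of 1 is a doubling. P-bi-TAT replicate 1 was unlike the other 5 arrays. Its median gene differed by -1.23 from the untreated mean, while the median gene differed by -0.02 in replicate 2 and by -0.00 in replicate 3, and replicate 1 was below all 3 untreated arrays for 75.0% of genes. It held 4527 distinct values, against 23072 to 23438 in the other arrays, so that many genes share a value in it. The negative controls, control probe sets identified as such by their names alone, had medians between 3.20 and 3.27 after P-bi-TAT. In untreated cells their medians were between 3.67 and 3.98. Their 95th percentiles were 5.76 to 6.09 after P-bi-TAT and 6.99 to 7.72 in untreated cells, so both measures of background were lower after P-bi-TAT. All 8 genes had group means above the mean negative control median in both groups, and ALDH1A3 and ALDH18A1 exceeded the 95th percentile on all 6 arrays. Of 5 markers of mesenchymal and glioma lines, all were above the negative control median in both groups, and VIM, CD44 and CAV1 exceeded the 95th percentile on all 6 arrays, FN1 on 1 and NES on 0. Of 5 astrocyte and glial markers, S100B, SOX2 and AQP4 were above that median in both groups, GFAP and OLIG2 in neither, and 0 exceeded the percentile on all arrays. The epithelial genes EPCAM and CDH1 were above the median in neither group. Among leukocyte markers CD68 exceeded the percentile on all 6 arrays, CD3E was above the median in both groups and PTPRC in untreated cells only. Among endothelial markers VWF was above the median in both groups, PECAM1 with P-bi-TAT only and CDH5 in neither. The neuron markers RBFOX3 and SYP were above it in both groups. CD3E, VWF, RBFOX3 and SYP exceeded the percentile on 0 arrays. Markers of other cell types thus passed the same median as S100B, SOX2 and AQP4.

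The regions before the start sites of ALDH1A1 and ALDH1A3 are shown because these were the genes of the 8 whose groups did not overlap. They are the 250 bases up to the RefSeq start in the build GRCh38.p14, given 5′ to 3′ on the strand of the gene. Capitals mark matches, on either strand, to any of 5 motifs searched, the CCAAT box (CCAAT), the TATA box (TATAAA), the GC box (GGGCGG), the core of the antioxidant response element (TGACNNNGC) and the E-box (CACGTG).
ALDH1A1 promoter (chr9:72953054-72953303, minus strand): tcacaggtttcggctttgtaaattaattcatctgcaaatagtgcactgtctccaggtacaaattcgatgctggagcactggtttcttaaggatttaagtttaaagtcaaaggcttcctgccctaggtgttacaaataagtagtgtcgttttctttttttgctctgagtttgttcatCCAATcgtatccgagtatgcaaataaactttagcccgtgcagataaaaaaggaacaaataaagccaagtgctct
ALDH1A3 promoter (chr15:100879581-100879830, plus strand): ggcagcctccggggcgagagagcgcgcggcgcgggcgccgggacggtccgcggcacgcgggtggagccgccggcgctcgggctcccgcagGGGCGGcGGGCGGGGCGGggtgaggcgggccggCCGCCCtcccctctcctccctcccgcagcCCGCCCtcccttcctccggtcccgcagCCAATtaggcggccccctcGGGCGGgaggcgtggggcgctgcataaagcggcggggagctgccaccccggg

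Both hold a CCAAT box on the gene's strand, at bases -74 to -70 in ALDH1A1 and -71 to -67 in ALDH1A3, counted back from the start. ALDH1A1 had no other match and a GC content of 38.4%, while ALDH1A3 had 6 GC boxes, of which 2 share a base, and a GC content of 82.4%. RefSeq regions were matched for 7 of the 8 genes, all but ALDH2. The CCAAT box was in 4 of the 7 (ALDH1A1, ALDH1A3, ALDH1B1 and ALDH7A1) and in 33.0% of 27305 such regions of all genes, and the GC box was in 4 of the 7 (ALDH1A3, ALDH1B1, ALDH7A1 and ALDH9A1) and in 42.3% of all. The E-box was in ALDH18A1 alone among the 7 and in 6.49% of all, and the TATA box and the antioxidant response element core were in 0 of the 7 and in 11.1% and 11.0% of all. A match of letters is a description and not a binding site.

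ALDH1A1, which oxidizes retinaldehyde and is a common marker of stem-like cells, was the gene whose P-bi-TAT arrays agreed best. Its log2 values were 5.29, 4.81 and 4.50 in P-bi-TAT replicates 1, 2 and 3, against 6.72, 5.61 and 6.47 in untreated replicates 1, 2 and 3. The 3 P-bi-TAT values lay under the 3 untreated ones, with a gap of 0.31 between the groups. The means were 4.87 ± 0.40 with P-bi-TAT and 6.27 ± 0.59 in untreated cells (SD, n = 3 each), which gave a difference of -1.40 (standard error 0.47, 95% interval -2.52 to -0.27, limma adjusted p = 0.847). On a linear scale the untreated mean was 2.63-fold that of P-bi-TAT. The signal was low, and 0 of the 6 arrays exceeded the 95th percentile of the negative controls, whose mean median differed by -0.59 between the groups in the same direction. The part of that background shift in the difference was not tested. In P-bi-TAT replicate 1 the difference from the untreated mean, -0.97, was smaller than that array's median over all genes, and its exact value was shared by 25 other gene probe sets. With the median difference of each array subtracted, the differences were 0.26, -1.43 and -1.76 in P-bi-TAT replicates 1, 2 and 3. After quantile normalization, which gives the 6 arrays 1 distribution, they were 1.47, -1.40 and -1.65, and the difference of means was -0.53. On that scale the P-bi-TAT arrays of ALDH1A1 agreed least of the 8 genes. Without P-bi-TAT replicate 1 the difference of means as deposited was -1.61 (standard error 0.45, limma adjusted p = 0.217).

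ALDH1A3, the other retinaldehyde dehydrogenase of the 8, was far more even in untreated cells. It had log2 values of 6.47, 8.91 and 8.20 in P-bi-TAT replicates 1, 2 and 3, against 8.95, 9.13 and 8.99 in the untreated arrays. The groups did not overlap, but P-bi-TAT replicate 2 was only 0.04 below the lowest untreated array. The untreated arrays spanned 0.19 and the P-bi-TAT arrays 2.44. The difference of means was -1.17 (standard error 0.66, 95% interval -2.73 to 0.39, limma adjusted p = 0.847), and without P-bi-TAT replicate 1 it was -0.47 (standard error 0.40). For both genes the exact permutation test gave a two-sided p of 0.1, which is the smallest that 3 arrays against 3 allow.

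**Figure D1:**
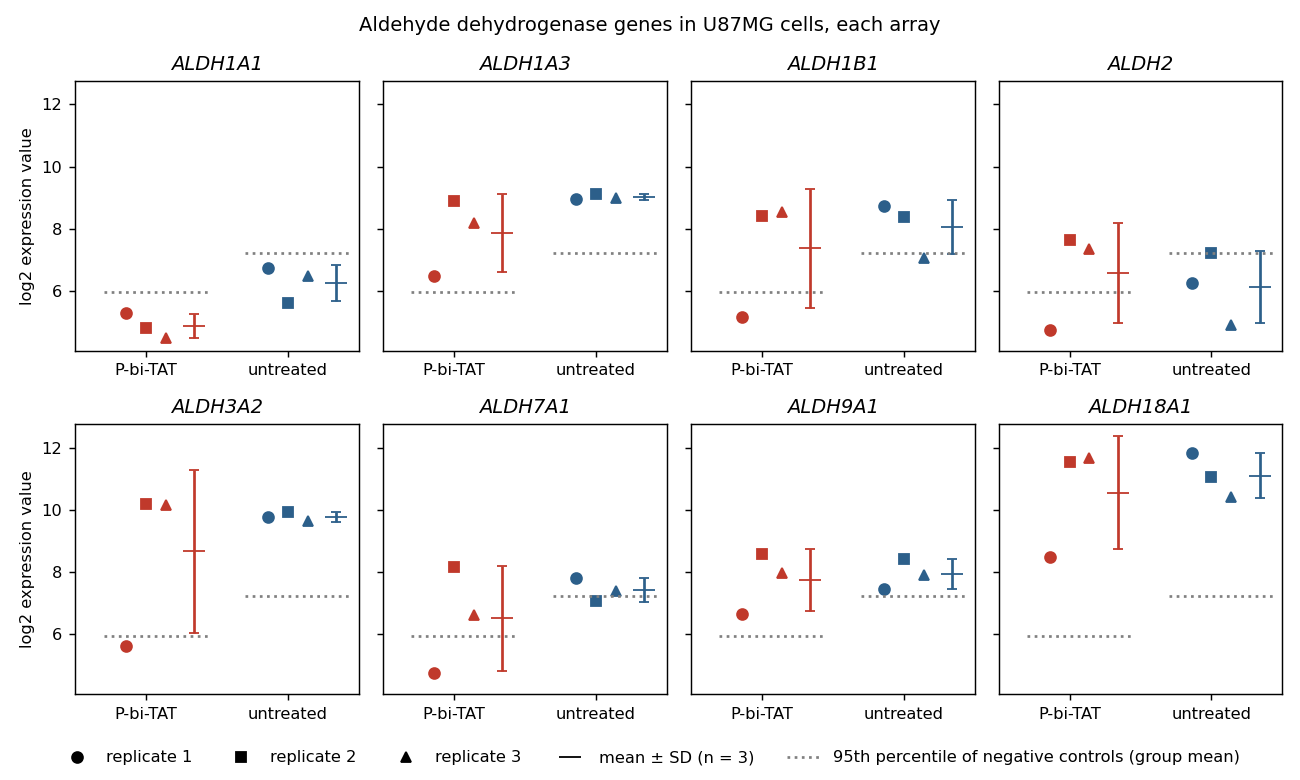
Log2 expression values of the 8 genes, with 3 P-bi-TAT arrays on the left and 3 untreated arrays on the right of each panel, symbols for replicate numbers, means with SD (n = 3) and dotted lines at the mean 95th percentile of the negative controls in each group. P-bi-TAT replicate 1 (circle) was the lowest of the 6 arrays for 7 of the 8 genes, against 67.4% of all genes. The exception was ALDH1A1, which lies under both dotted lines.

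ALDH2, the mitochondrial enzyme that clears acetaldehyde and 4-hydroxynonenal, had the highest difference among the 8 in P-bi-TAT replicates 2 and 3. Its log2 values were 4.74, 7.64 and 7.35 in P-bi-TAT replicates 1, 2 and 3, against 6.25, 7.23 and 4.91 in untreated replicates 1, 2 and 3. P-bi-TAT replicates 2 and 3 were above all untreated arrays and replicate 1 was below all of them, while the untreated arrays themselves spanned 2.32. The means were 6.58 ± 1.60 with P-bi-TAT and 6.13 ± 1.17 in untreated cells (SD, n = 3 each), a log2 difference of 0.45 with a 95% interval of -1.77 to 2.67 (limma, adjusted p = 0.927). Leaving out P-bi-TAT replicate 1 gave 1.37, or 2.58-fold, with an interval of -0.11 to 2.84 and an adjusted p of 0.380 from limma. ALDH2 exceeded the 95th percentile of the negative controls on 3 of the 6 arrays. With all 6 arrays as deposited and equally weighted, ALDH2 was the only one of the 8 with a positive difference. That difference was -0.08 without P-bi-TAT replicate 2 and -0.16 without untreated replicate 3.

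ALDH1B1, a mitochondrial relative of ALDH2 that also oxidizes acetaldehyde, was not raised above all untreated arrays in any P-bi-TAT array. It had 5.17, 8.42 and 8.54 in P-bi-TAT replicates 1, 2 and 3, against 8.73, 8.38 and 7.07 in the untreated arrays. The groups overlapped, since P-bi-TAT replicates 2 and 3 lay between untreated replicates 1 and 2, while P-bi-TAT replicate 1 lay below all untreated arrays. The difference of means was -0.68 (95% interval -3.03 to 1.66), and without P-bi-TAT replicate 1 it was 0.42 (interval -0.81 to 1.65).

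ALDH3A2, the fatty aldehyde dehydrogenase whose loss causes Sjögren-Larsson syndrome, showed the widest gap between P-bi-TAT arrays. It was at 5.62, 10.19 and 10.16 in P-bi-TAT replicates 1, 2 and 3, against 9.77, 9.93 and 9.63 in the untreated arrays. P-bi-TAT replicates 2 and 3 differed by 0.03 and were above all untreated arrays, whereas replicate 1 was at -4.15 from the untreated mean and under the 95th percentile of the negative controls. The mean difference of -1.12 (95% interval -3.98 to 1.75) thus described no array, and without P-bi-TAT replicate 1 it was 0.40 (interval -0.44 to 1.25). After quantile normalization P-bi-TAT replicate 1 was at -1.57 from the untreated mean and replicates 2 and 3 at 0.04 and 0.01, so ALDH3A2 was low in that array on both scales.

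ALDH7A1, which removes an aldehyde of lysine breakdown and also forms betaine, differed between P-bi-TAT replicates 2 and 3 more than any other of the 8. The values were 4.76, 8.15 and 6.61 in P-bi-TAT replicates 1, 2 and 3, against 7.82, 7.06 and 7.39 in the untreated arrays. P-bi-TAT replicate 2 was above all untreated arrays and replicate 3 below all of them, 1.54 apart. The difference of means was -0.92 (95% interval -2.92 to 1.08), and -0.04 (interval -1.26 to 1.17) without P-bi-TAT replicate 1.

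ALDH9A1, which oxidizes aminoaldehydes on the way to carnitine and GABA, had the mean difference nearest to 0 over the 6 arrays. It was at 6.66, 8.59 and 7.98 in P-bi-TAT replicates 1, 2 and 3, against 7.44, 8.42 and 7.92 in the untreated arrays. The groups overlapped, and the mean difference was -0.18 (95% interval -1.61 to 1.24). Its sign turned without P-bi-TAT replicate 1, which gave 0.36 (interval -0.67 to 1.38), and with quantile normalization (0.46) or median centring (0.32). In P-bi-TAT replicate 1 its difference of -1.26 was close to the -1.23 of the median gene of that array.

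ALDH18A1, the synthetase at the start of proline synthesis, was well above background on every array. It was at 8.48, 11.54 and 11.66 in P-bi-TAT replicates 1, 2 and 3, against 11.83, 11.07 and 10.40 in untreated replicates 1, 2 and 3. P-bi-TAT replicates 2 and 3 differed by 0.12 and lay within the untreated range of 1.43. The difference of means was -0.54 (95% interval -2.73 to 1.64), and without P-bi-TAT replicate 1 it was 0.50 (interval -0.62 to 1.61). The intervals of ALDH1B1, ALDH2, ALDH3A2, ALDH7A1, ALDH9A1 and ALDH18A1 include 0 and also differences of more than 1 in at least 1 direction, so an unchanged level was not shown for any of them.

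Over the 8 genes together, the P-bi-TAT arrays disagreed in direction. In P-bi-TAT replicate 1 all 8 were under the mean of untreated cells, as were 16195 of all 17687 genes. In replicate 2 it was 2 of the 8 and 9032 of all genes, and in replicate 3 it was 3 of the 8 and 8863 of all genes. The median over the 8 genes was -2.59, 0.43 and 0.22 in P-bi-TAT replicates 1, 2 and 3, against -1.23, -0.02 and -0.00 over all genes. In P-bi-TAT replicate 1 the 8 genes included 7 whose difference was more negative than that array's median, all but ALDH1A1. The difference of group means was above 0 for 1 gene and below 0 for 7, with a median of -0.80, against 3766 above, 13921 below and a median of -0.43 over all genes. Without P-bi-TAT replicate 1, 5 were above 0 and 3 below, with a median of 0.38 against -0.01 over all genes.

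**Figure D2:**
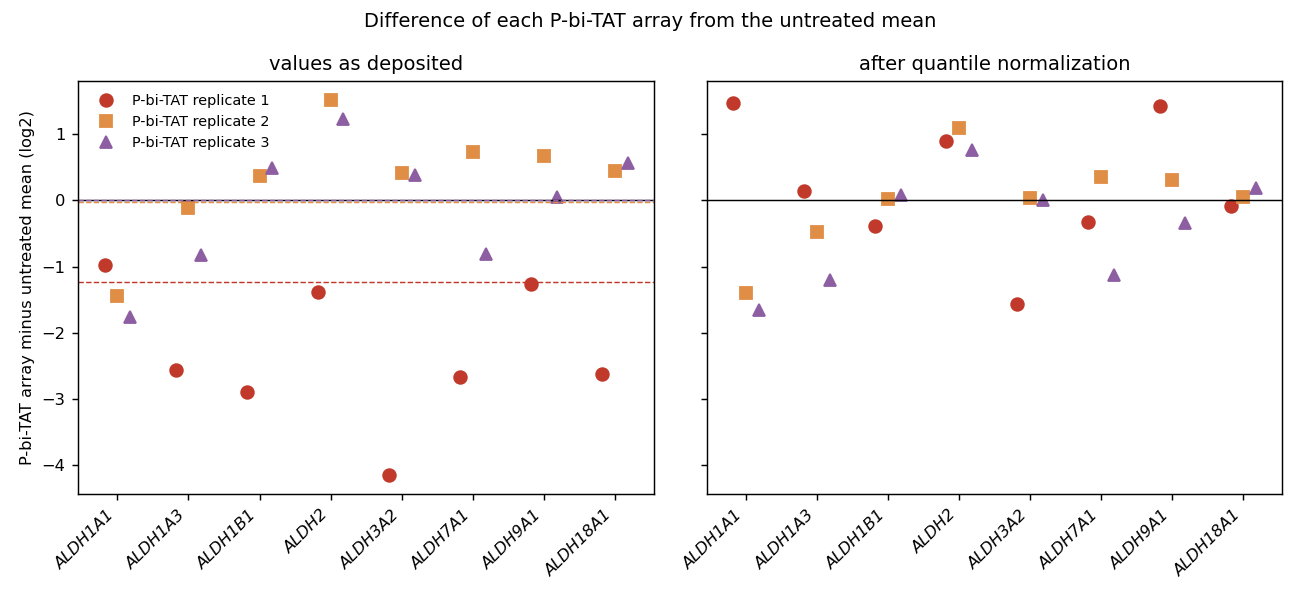
Difference of each P-bi-TAT array from the mean of the 3 untreated arrays (log2) for the 8 genes, as deposited on the left, with dashed lines at the median of all genes in each array, and after quantile normalization on the right. As deposited, replicate 1 lies between -4.15 and -0.97, while after quantile normalization ALDH1A1, ALDH1A3, ALDH2 and ALDH9A1 lie above 0 in that array.

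Of the 8 genes, ALDH1A1 alone met a threshold on fold and unadjusted p, and none met one on adjusted p. By limma with Benjamini-Hochberg adjustment 0 of the 8 passed an adjusted p under 0.05, and 0 of all genes (0.0%) passed with or without P-bi-TAT replicate 1. Over the 6 arrays 914 of 17687 genes had an unadjusted p under 0.05 from limma, close to the share this threshold passes when no gene differs. At 1.5-fold and an unadjusted p under 0.05, 1 of the 8 was lower with P-bi-TAT, ALDH1A1 (unadjusted p = 0.0218 from limma), against 4.98% of all genes, and 0 of the 8 were higher, against 0.192%. Without P-bi-TAT replicate 1 the counts were 1 lower, again ALDH1A1 (unadjusted p = 0.00725), against 5.31%, and 0 higher, against 9.26%. Groups that did not overlap, with P-bi-TAT lower, were seen for ALDH1A1 and ALDH1A3, 2 of the 8, against 14.5% of all genes, and with P-bi-TAT higher for 0 of the 8, against 0.758%. The comparison of P-bi-TAT with untreated cells was known when the genes were chosen, so nothing is read from these counts. The call of ALDH1A1 was lost without P-bi-TAT replicate 2 or 3 or without untreated replicate 1 or 3 (unadjusted p between 0.0638 and 0.0843 from limma). It was also lost with quantile normalization, with median centring, with the dimmest 33.3% of probe sets left out, and with a trend in the variance.

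**Figure D3:**
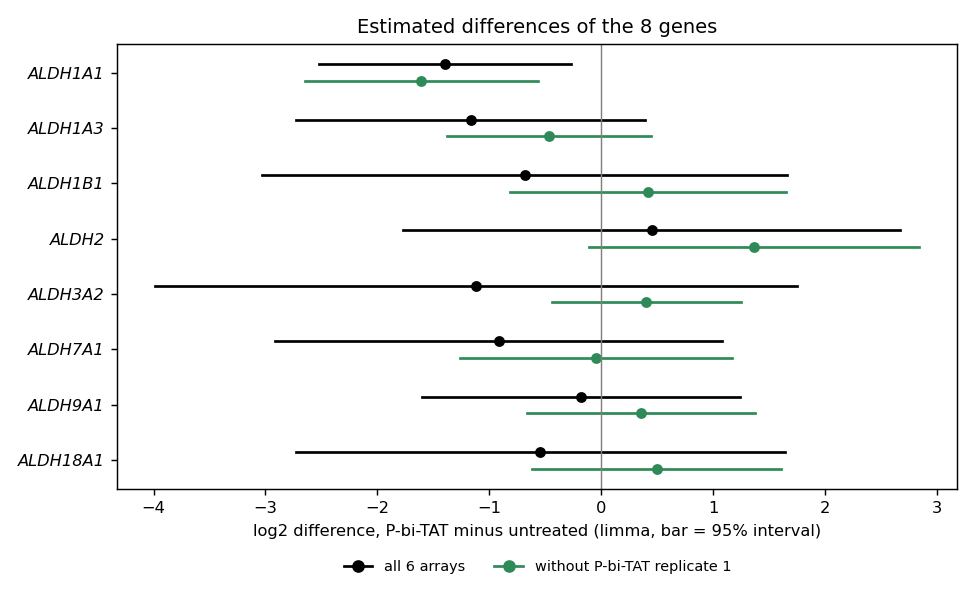
Log2 difference of P-bi-TAT minus untreated for each of the 8 genes from limma, with 95% intervals, for all 6 arrays (black) and without P-bi-TAT replicate 1 (green). The intervals of ALDH1A1 lie below 0 in both, from -2.52 to -0.27 and from -2.65 to -0.57, and those of the other 7 genes include 0.

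The 8 genes fell into profiles of different shape over the 6 arrays. Likeness was measured as the root mean square difference between 2 profiles, each minus its own mean, among 11983 other genes above the negative control median in both groups, and it is a description over 6 arrays of which P-bi-TAT replicate 1 sets much of each profile. Within the 8, ALDH1B1 and ALDH18A1 were most alike (0.21 on the log2 scale), followed by ALDH1A3 and ALDH7A1 (0.42), while ALDH1A1 had no member nearer than 1.00. The nearest gene of all was PLAAT3 for ALDH1B1 (0.08), CTNNBL1 for ALDH18A1 (0.09), MAIP1 for ALDH9A1 (0.10), TUBA3E for ALDH1A3 (0.12), TMEM209 for ALDH3A2 (0.13), MORN1 for ALDH1A1 (0.16), WDR13 for ALDH7A1 (0.25) and AKR7A2 for ALDH2 (0.27). AKR7A2, which encodes an aldehyde reductase, was at 4.63, 7.98 and 7.83 in P-bi-TAT replicates 1, 2 and 3, against 6.61, 7.02 and 5.31 in the untreated arrays. Like ALDH2 it was above all untreated arrays in P-bi-TAT replicates 2 and 3 and below them in replicate 1.

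The 11 other ALDH genes included the lowest difference of the superfamily. ALDH1L2, the mitochondrial 10-formyltetrahydrofolate dehydrogenase, was at 5.09, 6.18 and 6.18 in P-bi-TAT replicates 1, 2 and 3, against 8.02, 8.05 and 8.05 in the untreated arrays, which gave -2.22 (standard error 0.45, limma unadjusted p = 0.00174, adjusted p = 0.847). ALDH1A2, the third retinaldehyde dehydrogenase, was at 4.92, 4.98 and 4.87 with P-bi-TAT, against 5.68, 6.20 and 5.84 in untreated cells. These were the 2 of the 11 that passed the same threshold as lower (1.5-fold, unadjusted p under 0.05; 4.98% of all genes), and 0 passed it as higher (0.192% of all). With P-bi-TAT replicate 1 left out there were 3 lower (5.31% of all), ALDH3A1 at -1.17 being the third, and 1 higher (9.26% of all), ALDH6A1 at 1.60. ALDH1A1, ALDH1A2 and ALDH1A3, the 3 enzymes that make retinoic acid, each had P-bi-TAT arrays below all untreated arrays, with differences of -1.40, -0.99 and -1.17. For ALDH1A3 the gap was only 0.04, and the 3 were grouped with the results known. The same condition was met by ALDH1L2, ALDH3A1 and ALDH8A1, thus by 4 of the 11 other ALDH genes, and by 14.5% of all genes. Like ALDH1A1, ALDH1A2 exceeded the 95th percentile of the negative controls on 0 arrays, and its difference in P-bi-TAT replicate 1 was 0.24 with that array's median subtracted and 1.37 after quantile normalization. ALDH6A1, a mitochondrial enzyme of valine breakdown, was at 3.12, 5.18 and 5.34 in P-bi-TAT replicates 1, 2 and 3, against 3.87, 3.61 and 3.49 in untreated cells, where it was not above the negative control median. ALDH3A1, an aldehyde dehydrogenase abundant in cornea, was at 3.63, 2.75 and 2.85 with P-bi-TAT, where it was not above that median, against 3.80, 4.18 and 3.95 in untreated cells. ALDH8A1, which can also act on retinaldehyde, had -0.78 with P-bi-TAT arrays below the untreated ones, and ALDH1L1, the cytosolic folate enzyme, ALDH3B1, ALDH3B2 and ALDH4A1, which acts in proline breakdown, had differences of -0.35, -0.67, -0.50 and -0.76 with overlapping groups. ALDH3B2 was not above the negative control median in untreated cells. ALDH5A1 and ALDH16A1 were not above the negative control median in either group. Of the 11 genes 2 were above 0 and 9 below, with a median of -0.67 against -0.43 over all genes. Without P-bi-TAT replicate 1, 4 were above 0 and 7 below, with a median of -0.20 against -0.01 over all genes.

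**Figure D4:**
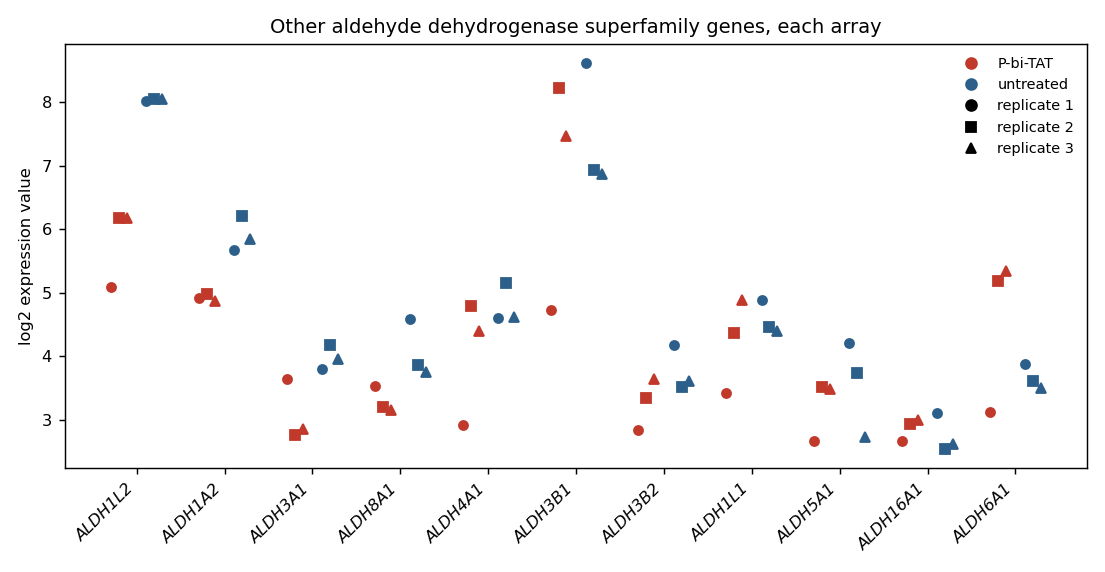
Log2 expression values of the 11 other ALDH genes, with P-bi-TAT arrays to the left of untreated arrays for each gene, symbols for replicate numbers and genes ordered by their mean difference. ALDH1L2 lies furthest to the left, with P-bi-TAT arrays at 5.09 to 6.18 and untreated arrays at 8.02 to 8.05.

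Genes of the reactions around the 8 enzymes were counted in the same fit, in which 4.98% of all genes were lower and 0.192% higher by the threshold of 1.5-fold and an unadjusted p under 0.05, and the median was -0.43. Without P-bi-TAT replicate 1 these shares were 5.31% lower and 9.26% higher, and the median was -0.01. Genes named below as called without that array were picked from those results. Of 24 measured genes of retinoid metabolism and response, which supply or answer to the products of ALDH1A1 and ALDH1A3, 3 were lower and 0 higher by that threshold (3 above 0, 21 below, median -0.55), and 6 had P-bi-TAT arrays below all untreated arrays (14.5% of all genes). The 3 were CYP26A1 (-1.50), which breaks down retinoic acid and is induced by it, TGM2 (-1.35), a transglutaminase induced by retinoic acid in many cells, and LRAT (-1.13), which stores retinol as esters. Whether retinoic acid signaling differed between the groups was not tested. RDH10, which makes retinaldehyde from retinol, had -1.50 (standard error 0.85) with overlapping groups. CYP26A1 was at 2.93, 2.65 and 3.61 with P-bi-TAT, where it was not above the negative control median, against 4.19, 4.32 and 5.17 in untreated cells. TGM2 was at 4.20, 4.19 and 4.04 with P-bi-TAT, against 5.87, 5.36 and 5.25 in untreated cells. Like ALDH1A1, all 3 called genes were under the 95th percentile of the negative controls on every array. On the other 5 arrays, with P-bi-TAT replicate 1 omitted, this list had 2 lower genes, CYP26A1 and TGM2, and 3 higher genes, the retinoic acid binding protein genes CRABP2 (1.05) and FABP5 (1.38) and the retinaldehyde reductase gene RDH11 (1.52), with a median of -0.41.

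Of 9 genes of alcohol oxidation upstream of ALDH2 and ALDH1B1, 1 was lower and 0 higher (median -0.13), and this was ADH7 (-1.13), which was not above the negative control median with P-bi-TAT. ADH5, the formaldehyde-clearing alcohol dehydrogenase, had 0.35 and CAT, which encodes catalase, had 0.30, and without P-bi-TAT replicate 1 they had 1.33 and 1.69 and were the 2 genes of this list called higher (1 lower, ADH7, median -0.10), while ADH1B had 0.23 and was not above the negative control median in untreated cells. Of 10 genes of proline and glutamate metabolism around ALDH18A1, 0 were lower and 0 higher (median -0.74). Among them OAT, GLUD1 and PYCR1, which encode ornithine aminotransferase, glutamate dehydrogenase and a reductase that makes proline, had -1.25, -1.21 and -1.04, and ASNS, which encodes asparagine synthetase, had -1.23. OAT was at 7.32 in P-bi-TAT replicate 1 and at 11.12 and 11.18 in replicates 2 and 3, against 10.88 to 11.51 in untreated cells so that replicate 1 alone was far below the other arrays. Without it the list had 0 lower genes and 1 higher, P4HA1 (2.02), which hydroxylates proline in collagen, and a median of -0.20. Of 13 genes of lysine, choline and carnitine metabolism around ALDH7A1 and ALDH9A1, 1 was lower and 0 higher (median -0.61), and this was PIPOX (-0.99), an oxidase of pipecolic acid in lysine breakdown. AASS, which starts lysine breakdown, had -1.49, BHMT, which uses betaine, had -0.93, and TMLHE, which starts carnitine synthesis, had -0.87. Leaving out P-bi-TAT replicate 1 gave this list 1 lower gene, PIPOX, and 1 higher, the choline transporter gene SLC44A1 (1.36), and a median of -0.18. Of 12 genes of amine oxidation and GABA metabolism 2 were lower and 0 higher (median -0.02), PAOX (-1.42) and SMOX (-1.27), both polyamine oxidases, while MAOB, a monoamine oxidase, had -0.84 and AOC3, another amine oxidase, had -0.65. With P-bi-TAT replicates 2 and 3 alone, PAOX was the 1 lower gene, SMOX was at -0.80, and 2 genes were higher, AKR7A2 (1.59) and GAD1 (1.07), which makes GABA, with a median of 0.05. Of 11 genes of fatty aldehyde and ether lipid metabolism around ALDH3A2, 0 were lower and 0 higher (median -0.59). There SGPL1, the lyase that releases a fatty aldehyde from sphingosine phosphate, had -1.49, HACL1, a peroxisomal lyase of fatty acid alpha-oxidation, had -1.40, ACSL1, which activates long-chain fatty acids, had -1.06, and FAR1, which makes fatty alcohols for ether lipids, had -1.05 and 0.90 without P-bi-TAT replicate 1. Without that array the list still had 0 lower and 0 higher, and its median was 0.20 (6 above 0, 5 below). P-bi-TAT arrays below all untreated arrays were not particular to the retinoid list. They were seen for 2 of the 9 genes of alcohol oxidation and 2 of the 10 of proline and glutamate metabolism. The same held for 1 of the 13 of lysine, choline and carnitine metabolism, 3 of the 12 of amine oxidation and 1 of the 11 of fatty aldehyde metabolism. By limma 0 genes of these lists passed an adjusted p under 0.05, with or without P-bi-TAT replicate 1.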

How the data were processed

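RNA of U87MG cells was measured on 6 Clariom S arrays, 3 of cells exposed to P-bi-TAT and 3 of untreated cells. The authors deposited log2 expression values per probe set, summarized by RMA according to the submitters' processing notes, which name the Transcriptome Analysis Console 4.0.1.36. The study's methods name the SST-RMA variant and another version of that console, and the genome build is not given in the sources used here. The values were used as deposited. All 21448 gene probe sets entered 1 limma fit (limma 3.58.1, R 4.3.3) with Benjamini-Hochberg adjustment, and genes were read from probe sets with 1 symbol, the one with the highest mean where several existed (17709 probe sets, 17687 genes). The fit was tested on simulated data. A gene was called in either direction when it passed 1.5-fold with an unadjusted p under 0.05, and exact permutation tests were run on single genes. The negative controls were 612 probe sets. The number of arrays limits the precision. Named genes were the 8 members, all other ALDH genes, the gene nearest in profile to each member and, of each other list, up to 4 genes with the largest difference in size among those above the negative control median in at least 1 group. The members and lists were chosen with earlier results of these data known. Alternatives were leaving out each array, the replicate number as a block, quantile normalization, median centring, a filter on the dimmest 33.3% of probe sets, other variance settings, array weights, and the methods' one-way test. Promoter regions were from RefSeq.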

Additional observations from a re-analysis of the deposited data

How the results depend on the processing

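Over 17 alternatives, ALDH1A1 (-1.73 to -0.53, limma adjusted p 0.0860 to 1.00) and ALDH1A3 (-1.69 to -0.37) kept a negative difference, and the other 6 genes changed sign in at least 1. The replicate block, the filter on dim probe sets, the trend and robust variance settings and the one-way test cannot change the difference itself. Nor can a mean over a gene's probe sets, as each of the 8 had 1. A kept sign in these settings therefore says nothing. Leaving out 1 array at a time gave -1.73 to -1.17 for ALDH1A1, -1.69 to -0.47 for ALDH1A3, -1.27 to 0.42 for ALDH1B1, -0.16 to 1.37 for ALDH2, -1.88 to 0.40 for ALDH3A2, -1.74 to -0.04 for ALDH7A1, -0.61 to 0.36 for ALDH9A1 and -1.09 to 0.50 for ALDH18A1. The upper ends of ALDH1A3, ALDH1B1, ALDH2, ALDH3A2, ALDH7A1, ALDH9A1 and ALDH18A1 came without P-bi-TAT replicate 1. The median over the 8 genes ranged from -1.29 to 0.38 when 1 array was left out. It was 0.48 without P-bi-TAT replicate 1 and with median centring, 0.0022 without it and with quantile normalization, and 0.27 with array weights. In the same order of settings ALDH1B1 had 0.52, 0.048 and 0.43, ALDH3A2 had 0.50, 0.022 and 0.32, and ALDH18A1 had 0.60, 0.12 and 0.54. ALDH7A1 had 0.055 and ALDH9A1 had 0.46 without P-bi-TAT replicate 1 and with median centring, and ALDH9A1 had 0.22 with array weights. With all 6 arrays, quantile normalization gave 0.46 for ALDH9A1 and 0.048 for ALDH18A1, and median centring gave 0.32 for ALDH9A1. The causes were not tested.

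The number of the 8 genes called lower (1.5-fold, unadjusted p under 0.05) was 0 to 2 when 1 array was left out, and 0 with quantile normalization, median centring, the dimmest 33.3% left out, or a trend in the variance, which all lost ALDH1A1. The 2 were ALDH1A3 and ALDH7A1, without P-bi-TAT replicate 2. The count of higher genes was 1 with array weights, ALDH2 at 1.26. Of all genes, 34 were higher and 880 lower. Leaving out 1 array gave 7 to 1638 higher, the last without P-bi-TAT replicate 1, and 568 to 939 lower. There were 675 higher and 552 lower with quantile normalization, 381 and 220 with median centring, 12 and 276 with the dimmest 33.3% left out, and 1928 and 1694 with array weights. There were 57 higher with a variance trend, and leaving out P-bi-TAT replicate 1 gave 992 with quantile normalization and 1984 with median centring. Past an adjusted p under 0.05 there were 7 genes with array weights and 1 with the methods' one-way test.

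Same-numbered arrays correlated in their deviations at 0.304, 0.0361 and 0.333 for replicates 1, 2 and 3. P-bi-TAT replicates 1 and 3 correlated best with the untreated array of the same number. P-bi-TAT replicate 2 correlated best with untreated replicate 3 (0.150). The labels give only the number, so whether same-numbered samples were paired cannot be told. With the replicate number as a block, 30 genes were higher and 765 lower, ALDH1A1 had -1.40 with an adjusted p of 0.847 from limma, and no call among the 8 genes changed.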
